A study of Mus musculus with 8 samples.

Results

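The 10 genes described here mark the lymphocytes that sit among epithelial cells of the gut and the cells that make its secreted antibody. They are Cd3e, Cd3g, Cd8a, Cd7, Itgae, Gzma, Gzmb and Ccl5 for the lymphocytes, and the immunoglobulin constant genes Igha and Igkc. They were chosen by name, with no measured value in the rule, out of the 54532 genes in the count table. Earlier results of these data were known when they were chosen. All 10 had counts in every library. Intestinal epithelial cells were taken from mice on lactation day 5, from 4 WT and 4 Rank-knockout animals (the knockout below), with 1 library for each animal. Per the study's methods, the knockout removes Rank, the receptor for the cytokine RANKL (gene symbol Tnfrsf11a), from intestinal epithelium by a Cre recombinase under the Villin promoter, the dams are littermates on a C57BL/6J background, and both genotypes were mated to wild-type males. Whether the WT animals carried the Cre or the floxed allele is not given in the sources used here, and for age the study states only that littermates were matched, with a wide range over all its mice. The epithelium was shaken off minced intestine with a dissociation reagent and passed through a strainer, and no sort by surface marker is described for it. Libraries were made with QuantSeq, which reads 1 tag near the 3′ end of each polyadenylated transcript, so that levels of different genes can be set side by side without a correction for length.

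Intraepithelial lymphocytes are mostly T cells that carry CD8, hold on to E-cadherin of the epithelial cell through the integrin αE (CD103, encoded by Itgae), and store granzymes. Epithelial cells in turn supply them with IL-15 and with butyrophilin-like proteins that keep subsets with a γδ T cell receptor in place. Plasma cells lie below the epithelium in the lamina propria and secrete IgA as a dimer held by the J chain, which the epithelial polymeric immunoglobulin receptor (Pigr) carries into the lumen. Lymphocytes and plasma cells do not express Villin, so the deletion is aimed at the epithelial cells around them.

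The immunoglobulin transcripts showed the largest differences between genotypes among the 10 genes. Igkc, the constant region of the κ light chain, fell in the Rank-knockout libraries by 1.90 on the log2 scale (SE 0.44, edgeR adjusted p = 0.0091). Igha, the constant region of the α heavy chain that defines IgA, differed by -1.49 on the same scale (SE 0.53) and missed the threshold of 0.05 with an edgeR adjusted p of 0.066. The lymphocyte genes had smaller differences, and none passed the test. Of the 10 genes, 8 passed edgeR's filter on low counts, 1 of these was lower in Rank-knockout and 0 were higher in the edgeR test. Before adjustment 3 of these 8 had a p under 0.05, Igkc, Igha and Gzma, all lower, and 0 were higher. DESeq2 called 1 lower and limma-voom 2, and both called 0 higher. Over all 9855 genes tested, 14.6% were lower and 15.8% higher, or 30.4% in either direction. These shares are for the adjusted edgeR p. Shares at an unadjusted p are at least as large, and those of DESeq2 and limma-voom are not given here. Cd3g and Itgae had too few counts for the filter, and their values come from a fit without it, in which the p before adjustment was 0.023 for Cd3g and 0.44 for Itgae. The libraries are bulk samples of unsorted cells. Fewer cells of a type in the tissue, fewer carried along by the preparation and less RNA per cell cannot be told apart.

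The ends of the immunoglobulin coding sequences are shown because they hold the cysteines through which the chains are joined into secreted antibody. Each sequence is the last 60 coding bases before the stop codon of the secreted form, in GENCODE M21 on GRCm38, 5′ to 3′ along the transcript, and the capitals mark the last cysteine codon. Igha lies at chr12:113258771-113258830 on the minus strand, Ighm at chr12:113420870-113420929 on the minus strand, Igkc at chr6:70726695-70726754 on the plus strand and Iglc1 at chr16:19061755-19061814 on the minus strand.
Igha: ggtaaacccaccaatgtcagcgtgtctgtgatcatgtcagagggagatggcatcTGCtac
Ighm: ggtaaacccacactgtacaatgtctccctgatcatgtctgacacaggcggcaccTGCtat
Igkc: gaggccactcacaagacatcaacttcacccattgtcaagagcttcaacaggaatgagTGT
Iglc1: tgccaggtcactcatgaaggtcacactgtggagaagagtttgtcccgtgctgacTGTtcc
In the α and μ chains the marked cysteine is the one before the last residue, in the tailpiece that binds the J chain. In the κ chain it is the last residue, and in κ and λ chains it pairs with a heavy chain. Igha and Ighm were identical at 41 of these 60 bases, and Igkc and Iglc1 at 8 of 60. Iglc2 and Iglc3, whose ends are not shown, were identical at 59 of 60 and may share reads.

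Total counts ran from 1530781 to 4335653 in WT and from 2103716 to 4321154 in the knockout, and 3 of the 4 WT libraries lay below all the Rank-knockout libraries. Counts given below for a whole genotype come from 9086319 counts in WT and 12566372 in the knockout. A count of 0 in 1 library therefore allows up to 0.637 to 2.06 CPM, the count scaled to 1000000 reads of the library, and these limits cover counting error only. Tags of Tnfrsf11a lie at the 3′ end, which can be outside the deleted part, and so do not check the labels. The gene was lower in Rank-knockout (log2 fold change -0.67, SE 0.22, edgeR adjusted p = 0.032), with 41.7 to 77.4 CPM in WT and 27.2 to 47.2 CPM in the knockout, so the groups overlapped. Its adjusted p was 0.075 to 0.10 without WT replicate 1 or 4, or without replicate 1 or 3 of the knockout.

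**Figure D1:**
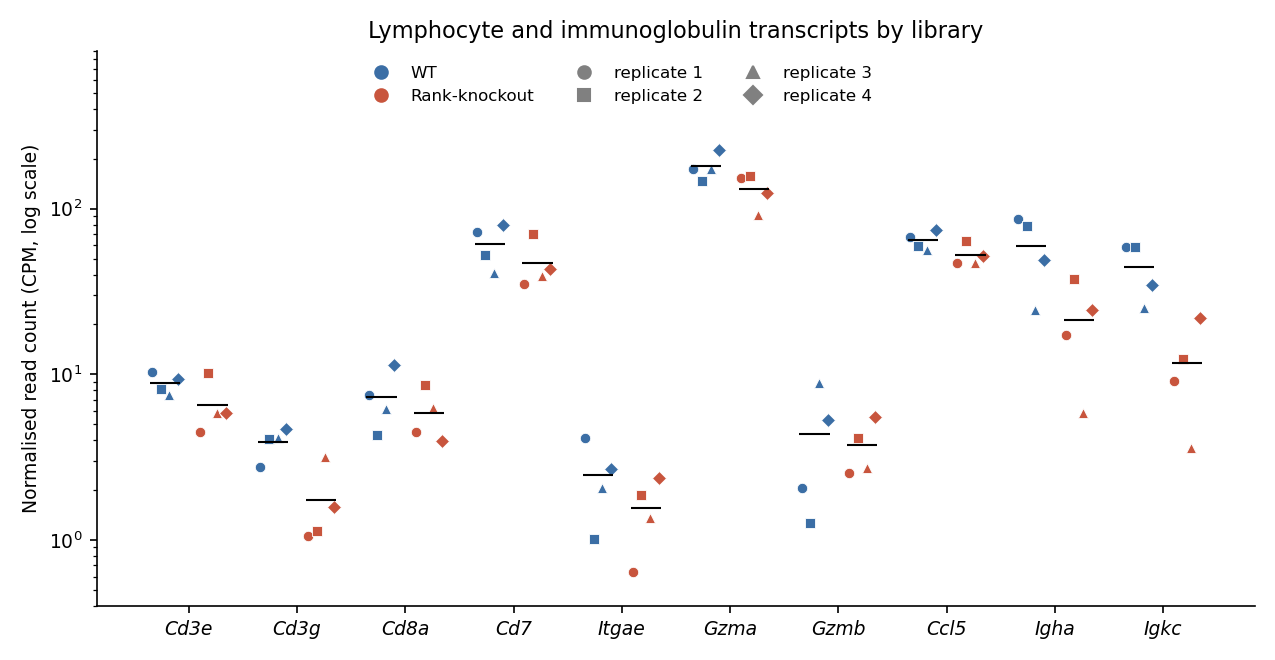
Normalised read count (CPM, log axis) of the 10 genes in each library, WT in blue and Rank-knockout in red, with the replicate number as the marker shape and a black line at the mean of 4 libraries. The groups overlap for every gene except Igkc, whose WT libraries start at 25.3 CPM and whose Rank-knockout libraries end at 21.9 CPM.

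Cd3e encodes the ε chain of CD3, which every αβ and γδ T cell receptor needs to reach the surface and to signal. Its level was 10.3, 8.11, 7.51 and 9.32 CPM in WT replicates 1 to 4, and 4.46, 10.1, 5.85 and 5.80 CPM in knockout replicates 1 to 4, from 72 and 83 counts in all. Rank-knockout replicate 2 stood with the WT libraries, and the other three Rank-knockout libraries lay below all WT libraries. The log2 fold change, Rank-knockout minus WT here and throughout, was -0.44 (SE 0.31, 95% interval -1.09 to 0.21, edgeR adjusted p = 0.29).

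Cd3g encodes the γ chain of CD3. It had 4, 16, 6 and 7 counts in WT and 5, 3, 7 and 6 counts in the knockout, or 3.89 ± 0.81 CPM and 1.73 ± 0.97 CPM (SD, n = 4 each). Rank-knockout replicate 3, with 3.15 CPM, was the only Rank-knockout library to reach into the WT range of 2.74 to 4.66 CPM. In the fit without the filter the log2 fold change was -1.22 (SE 0.54, 95% interval -2.27 to -0.16), and it did not pass after adjustment (edgeR adjusted p = 0.12).

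Cd8a encodes the α chain of CD8, which pairs with itself on many intraepithelial lymphocytes and with the β chain on conventional cytotoxic T cells. Its level was 7.54, 4.31, 6.15 and 11.3 CPM in WT and 4.46, 8.63, 6.29 and 3.95 CPM in the knockout. The groups overlapped over most of their ranges, and the log2 fold change was -0.29 (SE 0.37, 95% interval -1.07 to 0.49, edgeR adjusted p = 0.59). It ran from -0.57 without WT replicate 2 to -0.036 without WT replicate 4 over the alternatives and missed the threshold in each. Cd8b1, the β chain, had 0 counts in all WT libraries and 3 counts over the Rank-knockout libraries, against 54 and 73 counts of Cd8a. Cd4, the co-receptor of helper T cells, had 2 counts in WT and 1 count in the knockout.

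Cd7 encodes a surface glycoprotein of T cells and natural killer cells. With 60 to 207 counts per library it was measured more precisely than the CD3 genes. Its level was 72.6, 52.5, 41.0 and 79.2 CPM in WT and 35.0, 70.2, 39.1 and 43.0 CPM in the knockout. Again Rank-knockout replicate 2 was the highest of its group and WT replicate 3 the lowest of its own. The log2 fold change was -0.39 (SE 0.24, 95% interval -0.90 to 0.13, edgeR adjusted p = 0.24), and without Rank-knockout replicate 2 it was -0.64 with an adjusted p of 0.048.

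Itgae, the αE integrin chain, was the scarcest of the 10 genes, with 3 to 9 counts per library. Its level was 4.11, 1.01, 2.05 and 2.66 CPM in WT and 0.637, 1.88, 1.35 and 2.37 CPM in the knockout. The groups overlapped, and the log2 fold change in the fit without the filter was -0.49 (SE 0.63, edgeR adjusted p = 0.63), with a 95% interval from -1.73 to 0.75 that leaves differences of either sign open at this depth. It was -0.15 without WT replicate 1, -0.16 without Rank-knockout replicate 1, -0.88 without WT replicate 2, -0.83 without Rank-knockout replicate 4 and -1.25 with all libraries thinned to the depth of the shallowest one. Itgb7, its integrin partner β7, named here after its values were seen, was measured at 6.39 ± 1.93 CPM in WT and 8.33 ± 1.99 CPM in the knockout (SD, n = 4 each), a log2 difference of 0.33 (SE 0.30, edgeR adjusted p = 0.43).

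Gzma encodes granzyme A, a serine protease of cytotoxic granules, and was the most abundant of the 10 genes. Its level was 173, 147, 174 and 226 CPM in WT and 154, 157, 91.3 and 125 CPM in the knockout. Rank-knockout replicates 1 and 2 exceeded WT replicate 2, and the other three WT libraries lay above all Rank-knockout libraries. The log2 fold change was -0.45 (SE 0.18, 95% interval -0.83 to -0.06, edgeR adjusted p = 0.072). Without WT replicate 2 it was -0.54 with an adjusted p of 0.026.

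Gzmb encodes granzyme B, which cleaves caspases in target cells. It had 3, 5, 13 and 8 counts in WT and 12, 11, 6 and 21 counts in the knockout. The lowest and the highest level, 1.27 and 8.88 CPM, were both in WT libraries, and the Rank-knockout libraries lay between them. The log2 fold change was -0.03 (SE 0.55, 95% interval -1.20 to 1.15, edgeR adjusted p = 0.98), and its sign changed under several alternatives, among them the scaling by library totals and the fit without WT replicate 3 (0.57). Granzyme A transcripts outnumbered those of granzyme B in every library, with a log2 ratio of Gzmb to Gzma of -5.40 ± 0.91 in WT and -4.91 ± 0.52 in the knockout (SD, n = 4 each).

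Ccl5 encodes the chemokine RANTES, which memory and cytotoxic T cells store as transcript. Its level was 67.8, 59.3, 56.7 and 73.9 CPM in WT and 46.9, 64.2, 47.2 and 51.7 CPM in the knockout. Rank-knockout replicate 2 was the only one of its group within the WT range. The log2 fold change was -0.29 (SE 0.16, 95% interval -0.63 to 0.05, edgeR adjusted p = 0.18).

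**Figure D2:**
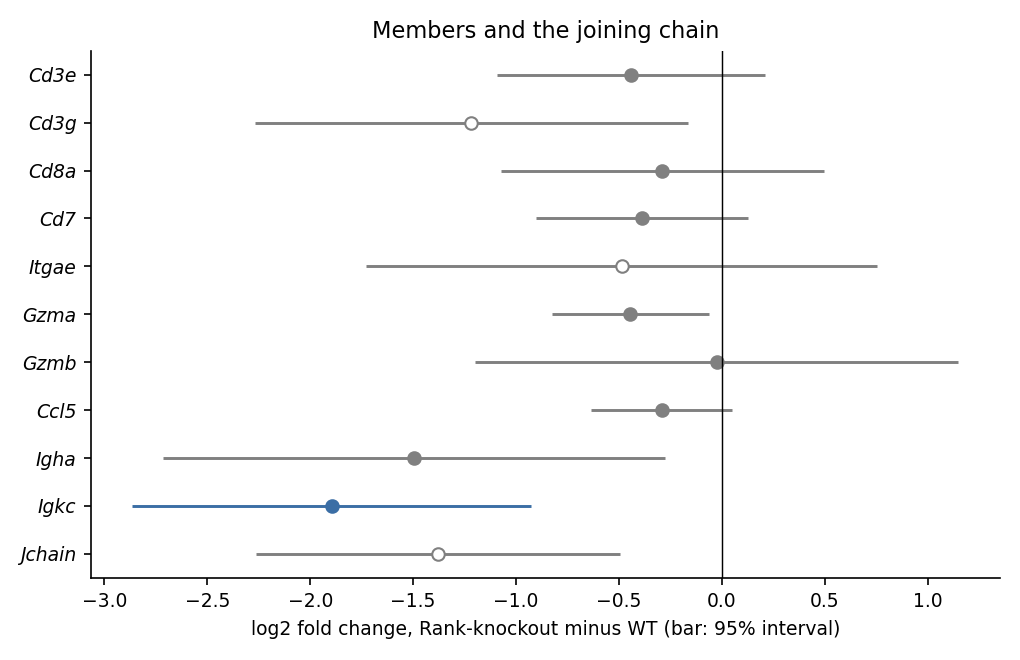
Log2 fold change (x axis, Rank-knockout minus WT) of the 10 genes and of Jchain, with its 95% interval as a bar. Open circles are genes under the filter on low counts, taken from the fit without it, and the coloured gene passed the test. Igkc at -1.90 and Igha at -1.49 stand farthest from 0 among the filtered genes, and the intervals of Cd3e, Cd8a, Cd7, Itgae, Gzmb and Ccl5 include 0.

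Summed over the 8 lymphocyte genes, the level was 340, 278, 300.5 and 413 CPM in WT and 249, 317, 197 and 239 CPM in the knockout. The sum is mainly Gzma, Ccl5 and Cd7. Rank-knockout replicate 2 was the only Rank-knockout library above the lowest WT library. The median log2 fold change over the 8 tested members, immunoglobulins included, was -0.42, beside 0.02 over all 9855 genes tested.

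The levels of the lymphocyte genes relative to Cd3e are given as log2 ratios of CPM per library, with a prior count of 2 and without a test. Cd7 exceeded Cd3e by 2.66 ± 0.27 in WT and 2.71 ± 0.08 in the knockout. Gzma exceeded Cd3e by 4.24 ± 0.25 in WT and 4.21 ± 0.50 in the knockout. The mean ratio of Ccl5 was 0.14 higher in Rank-knockout, that of Cd8a 0.16 higher and that of Itgae differed by -0.01, each less than the larger SD of the genotypes. Cd3g to Cd3e differed by -0.53, and Gzmb to Cd3e was 0.45 higher in Rank-knockout, and these too were smaller than the larger SD.

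**Figure D3:**
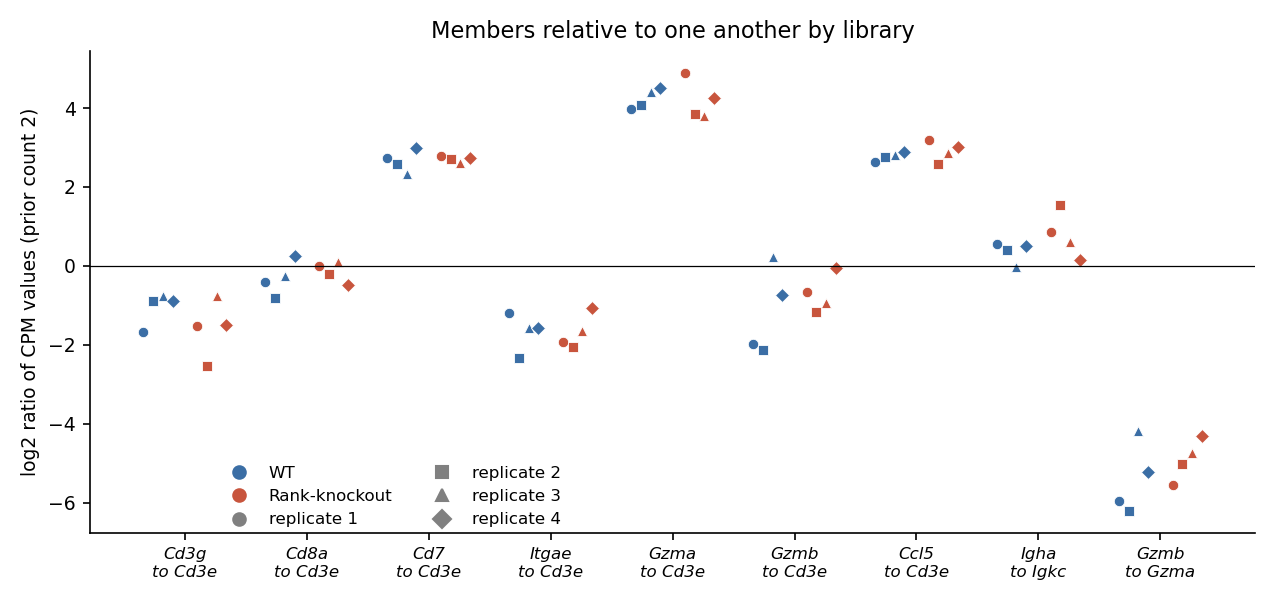
Log2 ratio (y axis) of 1 gene to another in each library, WT in blue and Rank-knockout in red, with the replicate number as the marker shape. The ratios of Cd7, Gzma and Ccl5 to Cd3e overlap between the genotypes, and the Igha to Igkc ratio reaches 1.54 in knockout replicate 2 against a highest WT value of 0.55.

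Igha had 126, 309, 36 and 74 counts in WT and 81, 100, 13 and 93 counts in the knockout. These were 86.3, 78.3, 24.6 and 49.3 CPM in WT and 17.2, 37.5, 5.85 and 24.5 CPM in the knockout. WT replicate 3, the lowest WT library, lay below Rank-knockout replicate 2 and close to replicate 4, and the other three WT libraries exceeded all Rank-knockout libraries. The edgeR p was 0.022 before adjustment, with a 95% interval of -2.71 to -0.27 for the log2 fold change. Igha passed the test without WT replicate 3 (log2 fold change -1.76, edgeR adjusted p = 0.025) or without Rank-knockout replicate 2 (-1.87, adjusted p = 0.031), and missed it without any other library.

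Igkc was at 58.9, 59.0, 25.3 and 34.6 CPM in WT and 9.13, 12.4, 3.60 and 21.9 CPM in the knockout. It was the only one of the 8 tested members for which every Rank-knockout library lay below every WT library, as did 14.3% of all genes tested. The order of the libraries was similar to that of Igha, with replicate 3 lowest in both genotypes. The 95% interval of the log2 fold change was -2.86 to -0.93. Igkc kept its direction and passed the test with each library left out in turn, with adjusted p values up to 0.040.

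**Figure D4:**
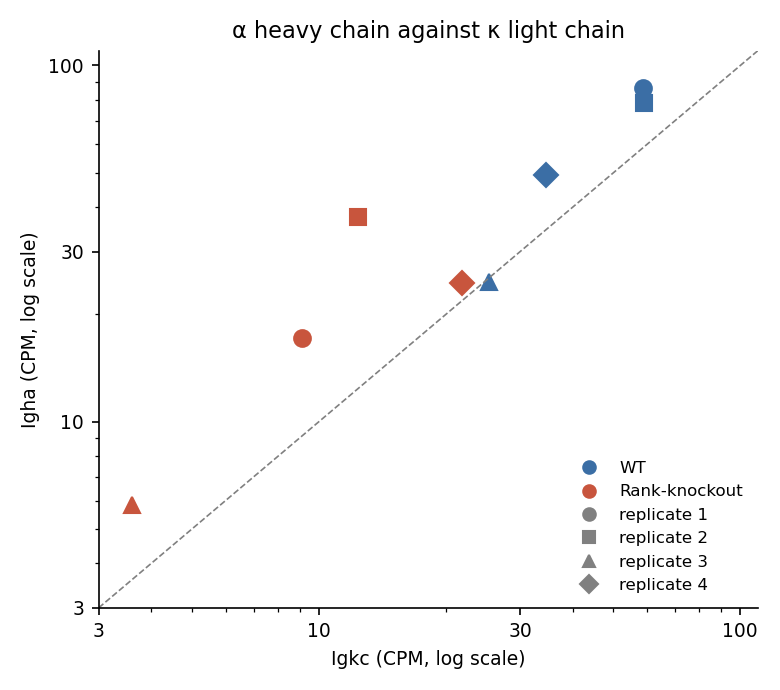
Igha against Igkc in each library (CPM, both axes log), WT in blue and Rank-knockout in red, with the replicate number as the marker shape and a dashed line at equal levels. WT replicates 1 and 2 stand at the upper right, Rank-knockout replicate 3 at the lower left with 5.85 and 3.60 CPM, and WT replicate 3 next to Rank-knockout replicate 4.

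The log2 ratio of Igha to Igkc was 0.55, 0.40, -0.04 and 0.50 in WT and 0.86, 1.54, 0.60 and 0.16 in the knockout. The ratio exceeded every WT value in Rank-knockout replicates 1, 2 and 3 but not in replicate 4. The means, 0.35 ± 0.27 and 0.79 ± 0.58 (SD, n = 4 each), differed by 0.44, less than the SD within Rank-knockout. Together Igha and Igkc made up 91.3% to 99.4% of the counts of the 13 immunoglobulin constant genes in each library. Over all libraries Igha gave 832 counts, Igkc 575, the λ gene Iglc1 33 and Ighm, the heavy chain of IgM, 8. Ighg2b and Ighg1, of IgG, gave 3 counts and 1 count, and Ighd gave 0. Variable genes gave 7 counts in WT, all in WT replicate 2, and 1 count in the knockout over 218 genes.

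Among the B and plasma cell genes, Jchain, which joins 2 IgA units, was left out by the filter on low counts. It had 7, 31, 5 and 8 counts in WT and 11, 6, 1 and 11 counts in the knockout, that is 4.80, 7.86, 3.41 and 5.33 CPM against 2.33, 2.25, 0.450 and 2.90 CPM. Every Rank-knockout library lay below every WT library. In the fit without the filter, where 6.66% of 20768 genes were lower and 8.54% higher, Jchain was lower (log2 fold change -1.38, SE 0.45, edgeR adjusted p = 0.019). The adjusted p was 0.24 without WT replicate 2, 0.099 without Rank-knockout replicate 3 and 0.27 with all libraries thinned to the depth of the shallowest one. Igkc was lower in that fit as well (-1.86, adjusted p = 1.9e-08), and Igha was not called (-1.46, adjusted p = 0.20). The SE of Igkc was 0.26 in that fit against 0.44 after the filter, and that of Igha 0.60 against 0.53. Its p values can therefore misstate the spread between animals, and the call of Jchain rests on that fit alone.

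Of the 28 genes of the B and plasma cell list, 2 were tested, 1 was lower and 0 were higher, also with DESeq2 and limma-voom and before adjustment, against 14.6% lower and 15.8% higher over all genes tested. The count of lower genes was 2 without replicate 3 of either genotype. The lower one of the 2 tested was Prdm1, which encodes the plasma cell regulator Blimp-1 and is also expressed by intestinal epithelium, at -1.18 (SE 0.28, edgeR adjusted p = 0.0053). Its level was 35.6, 21.03, 56.0 and 39.3 CPM in WT and 16.8, 21.8, 15.3 and 11.6 CPM in the knockout. The list's summed level was 91.2 to 121 CPM in WT and 76.4 to 102 CPM in the knockout, most of it from Blnk and Prdm1. Mzb1, a chaperone for immunoglobulin assembly, had 18 counts in WT and 12 in the knockout. Among the markers of B cells, Cd79a had 0 counts in all libraries, which allows up to 0.138 CPM over the 8 together, and Ms4a1 had 2 counts in WT and 0 in the knockout. Iglc1, named here after its values were seen, was lower in the fit without the filter (-3.04, edgeR adjusted p = 0.0010) with 25 of its 29 WT counts in WT replicate 2, and without that library the adjusted p was 0.53.

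Other T cell receptor genes were as scarce as Cd3e and Cd3g. Of the 25 genes of the T cell receptor list, 4 were tested and 0 passed in either direction with edgeR, DESeq2 or limma-voom or at an unadjusted edgeR p under 0.05, and their median log2 fold change was -0.40. Cd3d, the δ chain of CD3, was at -0.21 (SE 0.43, edgeR adjusted p = 0.75), Trbc2, a constant region of the receptor β chain, at -0.36 (SE 0.44, adjusted p = 0.56) and Ptprc, the pan-leukocyte phosphatase CD45, at -0.74 (SE 0.37, adjusted p = 0.14). Without WT replicate 2 the value of Cd3d was 0.076. Trac, the constant region of the receptor α chain, had 4 counts in WT and 15 in the knockout, and Trdc, that of the δ chain, had 24 and 20. All receptor constant genes together stood at 16.5 ± 4.21 CPM in WT and 12.9 ± 4.90 CPM in the knockout (SD, n = 4 each). Reads of γ constant genes within that sum that resemble one another may be split, which was not checked.

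Among the cytotoxic and intraepithelial lymphocyte genes, 38 of 39 names were found, 9 were tested, 1 was lower and 1 was higher, against 14.6% lower and 15.8% higher over all genes tested. Their median log2 fold change was -0.07, with 5 of the 9 below 0, and the list's summed level was 197 ± 13.5 CPM in WT and 220 ± 16.2 CPM in the knockout (SD, n = 4 each), with overlap. The higher sum in the knockout came from Bcl11b, and without this gene the sum was 116 ± 13.4 CPM in WT and 93.1 ± 23.8 CPM in the knockout, again with overlap. Il2rb, the β chain of the receptors for IL-2 and IL-15, was lower (log2 fold change -1.02, SE 0.29, edgeR adjusted p = 0.015). Its level was 23.3, 16.0, 17.1 and 22.6 CPM in WT and 11.2, 14.6, 4.95 and 6.85 CPM in the knockout, with no overlap. With all libraries thinned to the depth of the shallowest one, its adjusted p was 0.076. Bcl11b, a transcription factor of the T cell lineage, was higher by 0.64 (SE 0.14, edgeR adjusted p = 0.0038), with 76.5 to 92.7 CPM in WT and 110 to 141 CPM in the knockout. Its level exceeded that of Cd3e in every library, with 81.1 against 8.80 CPM on average in WT. The 13 genes of helper and regulatory T cells included 7 with 0 counts in all libraries, among them Foxp3 and Tnfsf11, which encodes RANKL.

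A list of epithelial partners of lymphocytes and IgA held 27 genes, of which 11 were too scarce to be tested. Of the 16 tested, 9 were lower in Rank-knockout and 0 were higher, against 14.6% lower and 15.8% higher over all genes tested, with the same counts from DESeq2, from limma-voom and at an unadjusted edgeR p under 0.05. The median log2 fold change was -0.62. This list was chosen with earlier results of these data known, so its share of lower genes is no independent support. It also holds general epithelial genes such as Epcam, and the part of the shift among epithelial genes, given below, was not tested. Pigr, the transporter of IgA, stood at 4567, 3807, 3499 and 4296 CPM in WT and 2262, 2925, 2380 and 3047 CPM in the knockout. The groups did not overlap, and Pigr fell by 0.61 on the log2 scale (SE 0.16, edgeR adjusted p = 0.0085).

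Btnl1, the butyrophilin-like protein that supports γδ intraepithelial lymphocytes together with Btnl6, stood at 76.0, 105, 99.7 and 97.8 CPM in WT and 27.4, 47.7, 41.4 and 44.3 CPM in the knockout. Each Rank-knockout library was below the lowest WT library, and Btnl1 fell by 1.25 (SE 0.18, edgeR adjusted p = 0.00031). Cxcl16, a membrane-bound chemokine for cells with CXCR6, fell by 1.19 (SE 0.22, adjusted p = 0.0012), with 23.3 to 32.1 CPM in WT and 9.01 to 13.9 CPM in the knockout. H2-T3, the thymus leukaemia antigen that binds CD8αα, fell by 0.76 (SE 0.15, adjusted p = 0.0021), with 537 to 599 CPM in WT and 241 to 384 CPM in the knockout.

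Il15, Btnl6, Il18, Xdh and Ccl25 of this list are named after their values were seen. Il15 stood at 21.9, 27.6, 21.9 and 26.0 CPM in WT and 13.2, 15.4, 8.54 and 14.2 CPM in the knockout, and fell by 0.92 (SE 0.22, edgeR adjusted p = 0.0051). Btnl6 fell by 1.29 (SE 0.33, adjusted p = 0.0084), Il18, an epithelial cytokine, by 0.73 (SE 0.17, adjusted p = 0.0049) and Xdh, the purine-metabolism enzyme xanthine dehydrogenase, by 0.64 (SE 0.18, adjusted p = 0.015). The adjusted p of Xdh was 0.059 without Rank-knockout replicate 3 and 0.057 with scaling by library totals. Epcam, an adhesion molecule of epithelial cells that also marks them, fell by 0.45 (SE 0.14, adjusted p = 0.024), and its adjusted p was 0.16 with scaling by library totals and 0.059 to 0.079 when any 1 of WT replicates 3 and 4 and knockout replicates 2 and 3 was left out. Cdh1, the E-cadherin that the αE integrin binds, was at -0.03 (SE 0.15, adjusted p = 0.92) with 4599 ± 616 CPM in WT and 4520 ± 558 CPM in the knockout (SD, n = 4 each), and its sign turned with the scaling by library totals. Ccl25, the gut chemokine that binds CCR9, was at -0.30 (SE 0.18, 95% interval -0.67 to 0.08, adjusted p = 0.22).

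**Figure D5:**
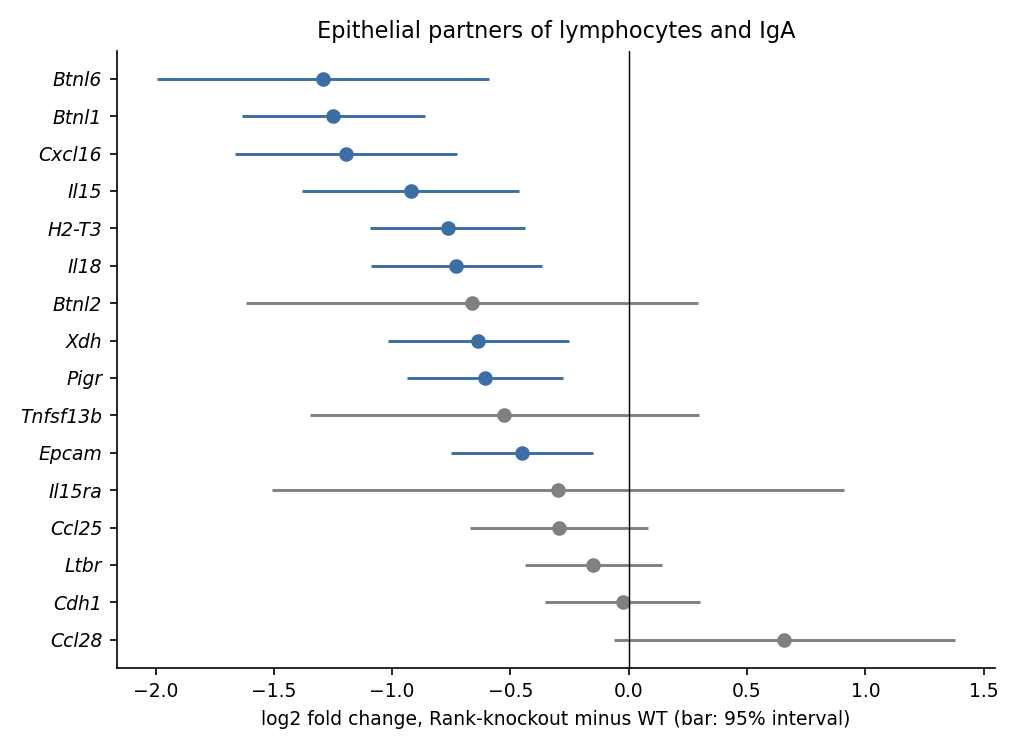
Log2 fold change (x axis, Rank-knockout minus WT) of the 16 tested genes of the list of epithelial partners of lymphocytes and IgA, with 95% intervals as bars and the genes that passed the test in blue. The 9 called genes lie from -1.29 (Btnl6) to -0.45 (Epcam).

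Markers of the other cells that the preparation could hold were measured beside these genes. The 18 myeloid genes were all too scarce to be tested and summed to 11.6 to 39.7 CPM in WT and 10.5 to 22.9 CPM in the knockout. The mean level in WT and in the knockout was 3.37 and 4.09 CPM for Lyz2, 1.15 and 0.372 CPM for Csf1r and 4.80 and 3.96 CPM for C1qa, and Adgre1 had 0 counts. Mrc1, Fcgr3 and Cx3cr1 of this list were at -1.25, -1.74 and -2.06 on the log2 scale in the fit without the filter and did not pass (edgeR adjusted p = 0.20, 0.21 and 0.29). Others went the other way: Cd68, C1qc, Cd14 and Lyz2 were at 0.81, 0.74, 0.68 and 0.36 and did not pass (edgeR adjusted p from 0.56 to 0.73). Of 16 genes of stroma, vessels and muscle, 2 were tested and 0 passed with any of these tools or before adjustment, Vim among them at -0.10 (SE 0.33, edgeR adjusted p = 0.84, with a sign that turned under the scaling by library totals), and the list summed to 31.3 to 49.7 CPM in WT and 30.1 to 57.0 CPM in the knockout. The mean level in WT and in the knockout was 0.635 and 0.766 CPM for Col1a1 and 1.23 and 0.946 CPM for Pecam1. The 14 genes of epithelial identity summed to 21071 to 26307 CPM in WT and 14920.5 to 20147 CPM in the knockout, without overlap. Of these genes 6 were lower and 3 higher, against 14.6% and 15.8% over all genes tested, with 7 lower and 2 higher by DESeq2 and 5 lower and 2 higher by limma-voom. Krt20 and Vil1, of mature villus enterocytes, fell by 0.96 and 0.80 (adjusted p = 0.00036 and 0.0025), Muc13 by 0.70 (adjusted p = 0.0035), and Cdx1 and Krt19 were higher by 0.81 and 0.65 (adjusted p = 0.0015 and 0.0089). Krt18 was higher by 0.41 (adjusted p = 0.046), and its adjusted p was 0.076 to 0.15 without any 1 of WT replicates 1, 3 and 4 and Rank-knockout replicates 1, 2 and 3. The part of this shift among epithelial genes in the values of Igkc, Il2rb and the genes of the epithelial partners was not tested.

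Genes whose levels moved most like the members from library to library, after each genotype was centred on its own mean, are given as a description over 8 libraries and 9461 genes. With so few libraries and so many genes, the highest values of r can be this large by chance, which was not tested. For the mean of the 8 lymphocyte genes these were Lclat1, Slc52a2, Phactr2, Efr3b and Eci1, each with a Pearson r of 0.97. For the mean of Igha and Igkc they were Lrrfip2 (r = 0.99), Rab43 (0.98), Gm42659 (0.96), Eppk1 (0.96) and Slc5a3 (0.95).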

How the data were processed

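Counts per gene were analysed for 4 WT and 4 Rank-knockout libraries, grouped by the genotype in the labels. The authors' methods name BBDuk for trimming, bowtie2 for the removal of abundant sequences, STAR for alignment to GRCm38 with an Ensembl annotation, and featureCounts for strand-specific counting, and the deposited values are raw counts with no normalization. No molecular identifiers are described, so amplified copies of a molecule are counted separately. Reads from near-identical genes can be lost or split. Symbols of 54409 genes were taken from GENCODE M21. The 9855 genes kept by filterByExpr were scaled by TMM and tested with the quasi-likelihood F-test of edgeR 4.0.16 in R 4.3.3. The model held genotype alone, and the Benjamini-Hochberg adjustment ran over all of these genes with a threshold of 0.05. CPM values use the TMM-scaled library sizes, SEs come from the F statistic, and p values measure the spread between animals. The test was also run on simulated data, with an outcome that is not reported here. Alternatives were DESeq2 1.42.0 (the authors' tool), limma-voom (limma 3.58.1), other scalings and filters, thinning, a replicate block and leaving out each library. The members and lists were chosen with earlier results of these data known. Named genes were the members, Tnfrsf11a, the defining markers, up to 3 called genes a direction with the smallest p in each list, and the 5 genes most like each group of members. Any other gene in the text was named after its values were seen. Some genes of the lists are not reported here.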

Additional observations from a re-analysis of the deposited data

Results flagged for a closer look

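A library far from the others of its group was looked for in 84 sets of 4 libraries, of which chance gives about 1 in 20, and 3 were found. Bcl11b stood at 92.7 CPM in WT replicate 2 against 76.5 to 78.5 CPM in the other WT libraries. The log2 ratio of Cd3g to Cd3e was -1.66 in WT replicate 1, where Cd3g had 4 counts, against -0.90 to -0.77 in the other WT libraries. The total of WT replicate 2 was 4335653 counts against 1530781 to 1616024 in the other WT libraries.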

How the results depend on the processing

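Igkc kept its direction and passed the test under all 17 alternatives, from -2.39 to -1.56 on the log2 scale. The count of members lower in Rank-knockout, 1 in the analysis reported, was 2 with limma-voom, 2 with the replicate block and 2 after thinning to the shallowest total, where Igha joined Igkc each time (adjusted p = 0.018, 0.00023 and 0.028), and ran from 1 to 3 with 1 library left out. Without WT replicate 2 Gzma joined Igkc, without WT replicate 3 Igha did, and without Rank-knockout replicate 2 Igha and Cd7 did. The count of members higher was 0 under every alternative, and the partner genes lower in Rank-knockout numbered 7 to 10. Igha ranged from -1.87 to -1.22 and passed under 5 of 17 alternatives. Gzmb turned positive under 8 of 14: 0.17 with library totals, 0.10 without the 50 most abundant genes in the library sizes, 0.28 with limma-voom, 0.014 with the replicate block and -0.53 to 0.57 with 1 library left out, with adjusted p from 0.42 to 0.99. Other signs that turned, all of genes that missed the test, were Cd3d (-0.46 to 0.076 with 1 library left out, positive without WT replicate 2), Vim (0.10 with library totals, 0.031 with library sizes that omit the 50 most abundant genes, -0.34 to 0.23 with 1 library left out) and Cdh1 (0.17 with library totals, 0.10 with library sizes that omit these 50 genes, 0.0098 without the filter, -0.12 to 0.053 with 1 library left out). The cause was not tested. Scaling by library totals moved the median of all genes by 0.20 and changed the calls over all genes from 1438 lower and 1555 higher to 859 and 2566, and library sizes that omit the 50 genes with most counts moved it by 0.13. Same-numbered libraries had correlations of 0.05, 0.15, -0.14 and 0.32 in their deviations from the group means. Libraries of different numbers had -0.35 to 0.25. These values cannot decide whether the numbers pair the animals. The replicate block gave 1602 lower and 1708 higher genes. Without WT replicate 4, 1020 genes were higher. Depth limits Cd3e, Cd3g, Cd8a, Itgae, Gzmb and Jchain, with 32 counts or fewer in each library.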
